A study of Mus musculus with 4 samples.

Results

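The genes described here are 45 genes of antioxidant defence: the transcription factor NRF2 (gene Nfe2l2) and its inhibitor Keap1, targets of NRF2, the enzymes that make and use glutathione and thioredoxin, the enzymes that remove superoxide and peroxide, and the enzymes that make NADPH or spend it. They were taken by name from a list, and all 45 names stand on the array. The cystine transporter gene Slc7a11, read by 4 probes, was above background on 0 of the 4 arrays and was not measured. The other 44 were well above background on all 4 arrays, and they belong to 24638 gene entries that were above background on at least 1 array. The RNA came from kidneys of ICR mice, an outbred strain. The mice were injected with saline or with vancomycin, a glycopeptide antibiotic whose main adverse effect is kidney injury. Injections were given at zeitgeber time 2 or 14 (ZT2 or ZT14, counted in hours after lights on), and the organ was collected 1 day later. Crossing treatment with injection time gives 4 groups, each with 1 single-colour array. The labels give no dose, sex or age and do not say whether an array held RNA of a single mouse or of a pool.

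NRF2 is held in the cytosol and marked for degradation by KEAP1. Electrophiles and oxidants modify KEAP1, and NRF2 then enters the nucleus, pairs with small MAF proteins and binds antioxidant response elements of genes for glutathione synthesis, thioredoxin reduction, quinone reduction and NADPH supply. Glutathione and thioredoxin hand electrons to the peroxidases, and NADPH restores both. The kidney's proximal tubule takes up many drugs and relies on these systems. NADPH oxidases work the other way, since they spend NADPH to make superoxide or hydrogen peroxide.

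The core of the antioxidant response element was looked for because it is the site through which NRF2 acts on its target genes. Promoter windows from RefSeq (GRCm38.p6, from 250 bases before to 50 bases after a start) were matched by symbol for 40 of the 45 genes, in 51 windows. Hmox1, Gclc, Gsr, Prdx6 and Sod3 had no window. Sites outside the windows were not looked for, so a gene without a match may still have one. The core TGACNNNGC, searched on both strands, stands in 8 of the 51 windows, each of a different gene, and in 12.4% of the 32851 windows of all genes. The 8 matches are printed 5′ to 3′ on the gene's strand with 10 bases on either side. Capitals mark the core, which appears as its reverse complement where it lies on the opposite strand.
G6pdx: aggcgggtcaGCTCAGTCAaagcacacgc
Gclm: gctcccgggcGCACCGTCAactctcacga
Nfe2l2: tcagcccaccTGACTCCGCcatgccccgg
Pgd: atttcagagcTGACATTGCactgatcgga
Prdx1: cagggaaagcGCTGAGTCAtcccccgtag
Sod1: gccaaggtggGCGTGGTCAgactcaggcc
Srxn1: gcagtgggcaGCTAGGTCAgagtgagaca
Txnrd1: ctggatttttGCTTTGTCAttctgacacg

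These stretches lie at chrX:74428919-74428947 on the minus strand (G6pdx), chr3:122245413-122245441 on the plus strand (Gclm), chr2:75704885-75704913 on the minus strand (Nfe2l2), chr4:149166061-149166089 on the minus strand (Pgd), chr4:116685456-116685484 on the plus strand (Prdx1), chr16:90220696-90220724 on the plus strand (Sod1), chr2:152105542-152105570 on the plus strand (Srxn1) and chr10:82859104-82859132 on the plus strand (Txnrd1). The core begins 57 bases before the start in G6pdx, 134 in Gclm, 240 in Nfe2l2, 133 in Prdx1, 56 in Sod1 and 92 in Txnrd1. In Pgd it begins at base 4 of the transcript and in Srxn1 at base 29. The match in Pgd belongs to an alternative start. The window of the start further upstream, at chr4:149166656-149166955 on the minus strand, holds no match. The further windows of Txnrd1, at chr10:82833701-82834000 and chr10:82860091-82860390, hold none either. The stricter form TGACTCAGC, which is contained in the core, stands in 0.454% of all windows and here in Prdx1 alone. The genes with a match did not share a direction with vancomycin. At ZT2, Nfe2l2, Txnrd1, Prdx1 and Gclm were higher and Srxn1, G6pdx, Pgd and Sod1 lower. At ZT14, Nfe2l2, Txnrd1 and Gclm were higher and the other 5 lower.

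Osgin1 and G6pdx are the genes for which the whole upstream stretch is shown. Osgin1 was the member furthest above 0 over both injection times, and G6pdx, of the members with a core before the start, was the one furthest below 0. Each run is the 250 bases before the start, with the core in capitals. The first is at chr8:119436897-119437146 on the plus strand and holds no match to the core, and the second is at chrX:74428881-74429130 on the minus strand.
Osgin1: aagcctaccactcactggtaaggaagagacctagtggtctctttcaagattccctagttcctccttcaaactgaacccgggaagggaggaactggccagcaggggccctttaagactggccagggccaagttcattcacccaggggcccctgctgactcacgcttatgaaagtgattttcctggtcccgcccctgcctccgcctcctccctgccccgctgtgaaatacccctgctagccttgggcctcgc
G6pdx: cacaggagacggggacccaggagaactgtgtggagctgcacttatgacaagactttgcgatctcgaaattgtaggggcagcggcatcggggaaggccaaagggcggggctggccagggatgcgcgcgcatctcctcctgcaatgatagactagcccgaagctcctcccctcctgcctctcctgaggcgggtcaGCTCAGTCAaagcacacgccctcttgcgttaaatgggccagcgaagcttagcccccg

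Values below are log2 signals relative to the 75th percentile of the same array, so 0 is that percentile, and they are always given in the order saline and vancomycin at ZT2, then saline and vancomycin at ZT14. A change is the vancomycin array minus the saline array of the same injection time. With 1 array per group a change at a single time has no test and is called by size, at 1.5-fold (0.585 on the log2 scale). Replicate spots of a probe differed within an array by a median SD of 0.041 to 0.049, a technical spread that says nothing of the animals. A limma model with terms for treatment and for injection time was fitted over the 4 arrays. It has 1 residual degree of freedom, so its p-values rest on how far the changes at the 2 times differed and on a prior spread shared by all genes. All saline arrays lay at position 1.1 of their slide and all vancomycin arrays at position 1.2, and each injection time had a slide of its own. Treatment and position, and likewise time and slide, cannot be told apart. Proximal tubule markers (Slc34a1, Lrp2, Slc5a2, Slc22a6, Kap and Cubn) were well above background on all 4 arrays.

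Most of the 44 genes differed little between vancomycin and saline. At ZT2, Osgin1, Gpx2 and Glrx were at least 1.5-fold higher, 3 genes beside 8.75% of all genes, and Srxn1 and Cybb were at least 1.5-fold lower, 2 genes beside 11.9% of all genes. At ZT14, Osgin1 and Sod2 were at least 1.5-fold higher, 2 genes beside 6.37% of all genes, and Cybb, Nox4 and Gpx7 were at least 1.5-fold lower, 3 genes beside 9.43% of all genes. Osgin1 was the member past this size upward at both times, and Cybb the member past it downward at both times. The log2 signals were also divided by the slope of each array's spike-in controls. This gave 12 higher and 1 lower at ZT2, beside 8.49% and 17.7% of all genes. The 12 were Cat, Cbr1, Fth1, Glrx, Gpx1, Gpx2, Hmox1, Nfe2l2, Osgin1, Prdx1, Txn1 and Txnrd1. The ZT14 counts stayed as they were, beside 6.26% and 9.51%. With this division the median change at ZT2 over the 2071 genes with a log2 signal of 4 or more was 0.37. Without the division the median change of the 44 genes was 0.02 at ZT2 and -0.01 at ZT14. Over all genes it was 0.00 and 0.01.

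With a change of at least 0.2 in the same direction at both times, 4 members were higher (Osgin1, Gpx2, Sod2 and Txnrd1), which is 9.09% of the members beside 9.64% of all genes. In the other direction 5 were lower (Cybb, Srxn1, G6pdx, Gclc and Gpx7), which is 11.4% of the members and 11.4% of all genes. Gpx7 was not among the 5 under median centring, quantile normalization, normexp background correction, a pseudocount of 16 or the authors' deposited table, where its change at ZT2 lay between -0.19 and -0.045. Txnrd1 was not among the members higher at both times with normexp background correction, nor with the mean over probes, where Pgd came in. Neither share stood apart from the background of the array. In the limma fit 0 members, and 0.0% of all genes, had a Benjamini-Hochberg adjusted p under 0.05 for vancomycin. At an unadjusted p under 0.05, limma gave Osgin1 and Gpx2 as higher, 2 members beside 3.21% of all genes, and Cybb and Srxn1 as lower, 2 members beside 5.35% of all genes.

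**Figure D1:**
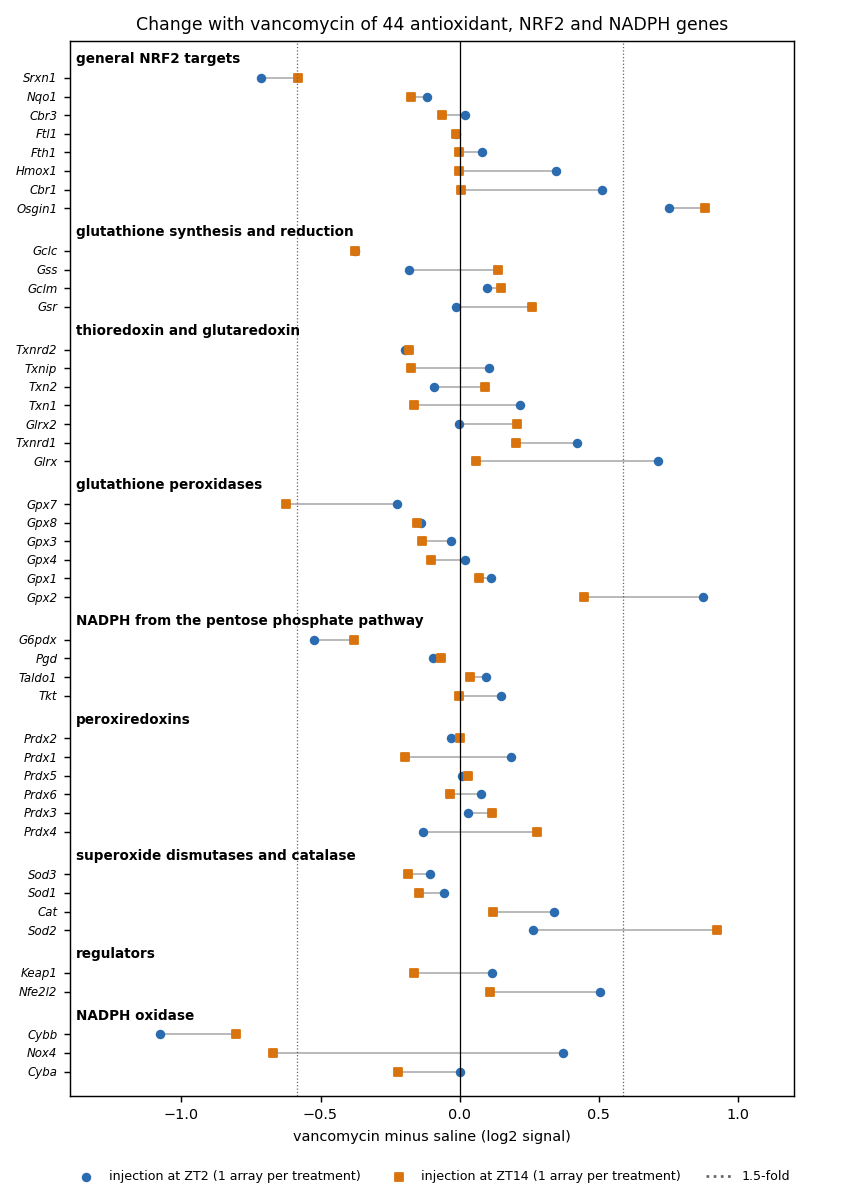
Change with vancomycin (x axis, vancomycin minus saline, log2 signal) of the 44 measured genes, grouped by role, for injection at ZT2 (circles) and ZT14 (squares), with 1 array per treatment and time and no error bars; dotted lines mark 1.5-fold. Most genes lie near 0, Osgin1 lies beyond the right line and Cybb beyond the left line at both times, and Nox4 lies on opposite sides of 0.

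Among the general targets of NRF2, Osgin1 and Srxn1 moved in opposite directions, each alike at the 2 times. Osgin1 encodes a growth inhibitor induced by oxidative stress. Its probe, at chr8:121970077-121970136 of mm9, begins gccagctgagtgtccaacttggagggcccc and read 3.71, 4.46, 3.33 and 4.21. Both vancomycin arrays were above both saline arrays, so the treatments did not overlap. How many of all genes show such a separation was not counted, here or for the members below, so it is given as description only. Osgin1 was thus 1.68-fold higher at ZT2 and 1.84-fold higher at ZT14 (0.75 and 0.88 on the log2 scale), with an estimate over both times of 0.82 ± 0.14 (SE, 2 arrays per treatment) and a limma adjusted p of 0.52.

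Srxn1 encodes sulfiredoxin, which repairs overoxidised peroxiredoxins. Its probe, at chr2:151937009-151937068 of mm9, begins gaagaatgtatgggaactctagtctctgca and read 3.79, 3.07, 3.58 and 2.99. Here both vancomycin arrays were below both saline arrays. The change was -0.71 at ZT2, a 1.64-fold lower signal, and -0.58 at ZT14, 1.497-fold lower and just short of the size threshold. With the spike-in slope the ZT2 value was -0.54, short of the threshold, and with normexp background correction the ZT14 value was -0.63, past it. Over both times it was -0.65 ± 0.14 (SE), with a limma adjusted p of 0.52.

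The other general targets stayed nearer to 0. Nqo1, the quinone reductase often used to read NRF2 activity, had log2 signals of 1.66, 1.55, 1.57 and 1.40 and changes of -0.12 and -0.18, with the vancomycin arrays just below both saline arrays. Hmox1, the haem oxygenase, read 3.18, 3.52, 2.74 and 2.73, so it was 0.35 higher with vancomycin at ZT2 and level at ZT14. The carbonyl reductase gene Cbr1 had changes of 0.51 and 0.00 and its relative Cbr3 of 0.02 and -0.06. The ferritin chains, which store iron, had changes of 0.08 and 0.00 (Fth1) and -0.01 and -0.01 (Ftl1). Over the 8 general targets the median change was 0.05 at ZT2 and -0.01 at ZT14.

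The regulators themselves were measured too. Nfe2l2, which encodes NRF2, read 1.97, 2.47, 1.78 and 1.89. The vancomycin array at ZT2 was the highest of the 4, the other 3 lay within 0.2 of each other, and the treatments overlapped. Its change was 0.50 at ZT2 and 0.11 at ZT14, 0.31 ± 0.18 (SE) over both times, with a limma adjusted p of 0.72, and both values were short of 1.5-fold. With division by the spike-in slope the ZT2 value was 0.71, past 1.5-fold. A dimmer probe of Nfe2l2 gave 0.22 and -0.07. Keap1, its inhibitor, read 1.70, 1.81, 1.95 and 1.78, with changes of 0.12 and -0.16, and the treatments overlapped. NRF2 is regulated mainly through its protein, which was not measured.

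In glutathione synthesis the genes for the subunits of the rate-limiting ligase did not move together. Gclc, the catalytic subunit, read 5.88, 5.50, 5.60 and 5.22, and both changes were -0.38, with the vancomycin arrays below both saline arrays. Over both times the change was -0.38 ± 0.14 (SE), with a limma adjusted p of 0.62. Gclm, the modifier subunit, read 4.94, 5.03, 4.86 and 5.0, so its changes were 0.10 and 0.15 and the vancomycin arrays lay just above both saline arrays. The glutathione synthetase gene Gss had changes of -0.18 and 0.14, and Gsr, which reduces oxidised glutathione with NADPH, of -0.01 and 0.26. The value of Gclc at ZT2 was -0.01 with division by the spike-in slope, whereas at ZT14 it lay between -0.45 and -0.35 under the other settings tried.

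Among the glutathione peroxidases, Gpx2 and Gpx7 passed the size threshold, and both were dim. Gpx2, a peroxidase best known from the gut epithelium, read -5.29, -4.42, -4.40 and -3.95, which is a processed intensity of 14, 23.0, 32.2 and 42.2. The saline array at ZT14 stood level with the vancomycin array at ZT2, so the treatments overlapped across times although vancomycin was higher within each time, by 0.87 and 0.45. The estimate over both times was 0.66 ± 0.18 (SE), with a limma adjusted p of 0.57. With normexp background correction the change at ZT2 was 0.35 and with a pseudocount of 16 it was 0.53, both under 1.5-fold.

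Gpx7, a peroxidase of the endoplasmic reticulum, read -3.16, -3.39, -2.49 and -3.12, with changes of -0.23 and -0.62. The saline array at ZT14 was the highest, the other 3 lay close together, and the treatments overlapped. The ZT14 value was -0.37 with normexp and -0.53 with a pseudocount of 16, both short of 1.5-fold. The abundant peroxidases were nearly level. Gpx1, the cytosolic enzyme, had changes of 0.11 and 0.07, Gpx3, the plasma enzyme that the proximal tubule secretes, of -0.03 and -0.14, and Gpx4, which reduces lipid peroxides in membranes, of 0.02 and -0.10. Gpx8 had -0.14 and -0.15.

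In the thioredoxin and glutaredoxin group the changes lay between -0.20 and 0.71 at ZT2 and between -0.18 and 0.21 at ZT14. The 0.21 is that of Glrx2, by a probe that is not particular to it, described below. Its next brightest probe gave 0.10. Glrx, the cytosolic glutaredoxin that removes glutathione from protein thiols, read 1.94, 2.65, 2.79 and 2.85. The saline array at ZT2 was the low one, while the other 3 lay between 2.65 and 2.85, so the treatments overlapped across times. Its change was therefore 0.71 at ZT2, 1.64-fold, and 0.06 at ZT14. Txnrd1, the cytosolic thioredoxin reductase, read 3.11, 3.54, 3.41 and 3.61, and both vancomycin arrays lay above both saline arrays. Its changes were 0.42 and 0.20, and 0.31 ± 0.15 (SE) over both times with a limma adjusted p of 0.68. Its dimmer probe gave 0.14 and -0.09. The thioredoxins had changes of 0.22 and -0.16 (Txn1, cytosolic) and -0.09 and 0.09 (Txn2, mitochondrial), and Txnip, which binds and inhibits thioredoxin, had 0.10 and -0.18.

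The 6 peroxiredoxins, which remove peroxides with electrons from thioredoxin, had small changes. Their changes ran from -0.13 (Prdx4) to 0.18 (Prdx1) at ZT2 and from -0.20 (Prdx1) to 0.28 (Prdx4) at ZT14, with medians of 0.02 at both times. Prdx2, abundant in red cells, had changes of -0.03 and 0.00 and the mitochondrial Prdx3 of 0.03 and 0.12. None of the 6 peroxiredoxins reached 1.5-fold at either time. Erythroid markers had a median change of -1.87 at ZT2 and 0.23 at ZT14, but did not all move together. Slc4a1 was higher at both times (0.31 and 0.34), and Epb4.2 was lower at both and dim on the vancomycin array at ZT2. The part of red cells in the value of Prdx2 was not tested.

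Sod2, the mitochondrial superoxide dismutase, was the dismutase that stood out. It read 3.66, 3.93, 2.95 and 3.88. The saline array at ZT14 was the low one, and both vancomycin arrays lay above both saline arrays. The change was 0.26 at ZT2 and 0.92 at ZT14, 1.90-fold, and 0.59 ± 0.24 (SE) over both times, with a limma adjusted p of 0.64. The cytosolic Sod1 had changes of -0.06 and -0.15 and the secreted Sod3 of -0.11 and -0.18. Catalase (Cat), which breaks down hydrogen peroxide in peroxisomes, had changes of 0.34 and 0.12.

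In the pentose phosphate pathway the gene for the entry enzyme was lower and the genes after it were level. G6pdx, glucose-6-phosphate dehydrogenase, which makes the first NADPH of the pathway, read 2.94, 2.42, 2.80 and 2.42. The vancomycin arrays agreed to the second decimal and lay below both saline arrays. The changes were -0.52 and -0.38, short of 1.5-fold, and -0.45 ± 0.14 (SE) over both times with a limma adjusted p of 0.59. Pgd, which makes the second NADPH, had changes of -0.10 and -0.07, Taldo1, the transaldolase, of 0.09 and 0.04, and Tkt, the transketolase, of 0.15 and 0.00.

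**Figure D2:**
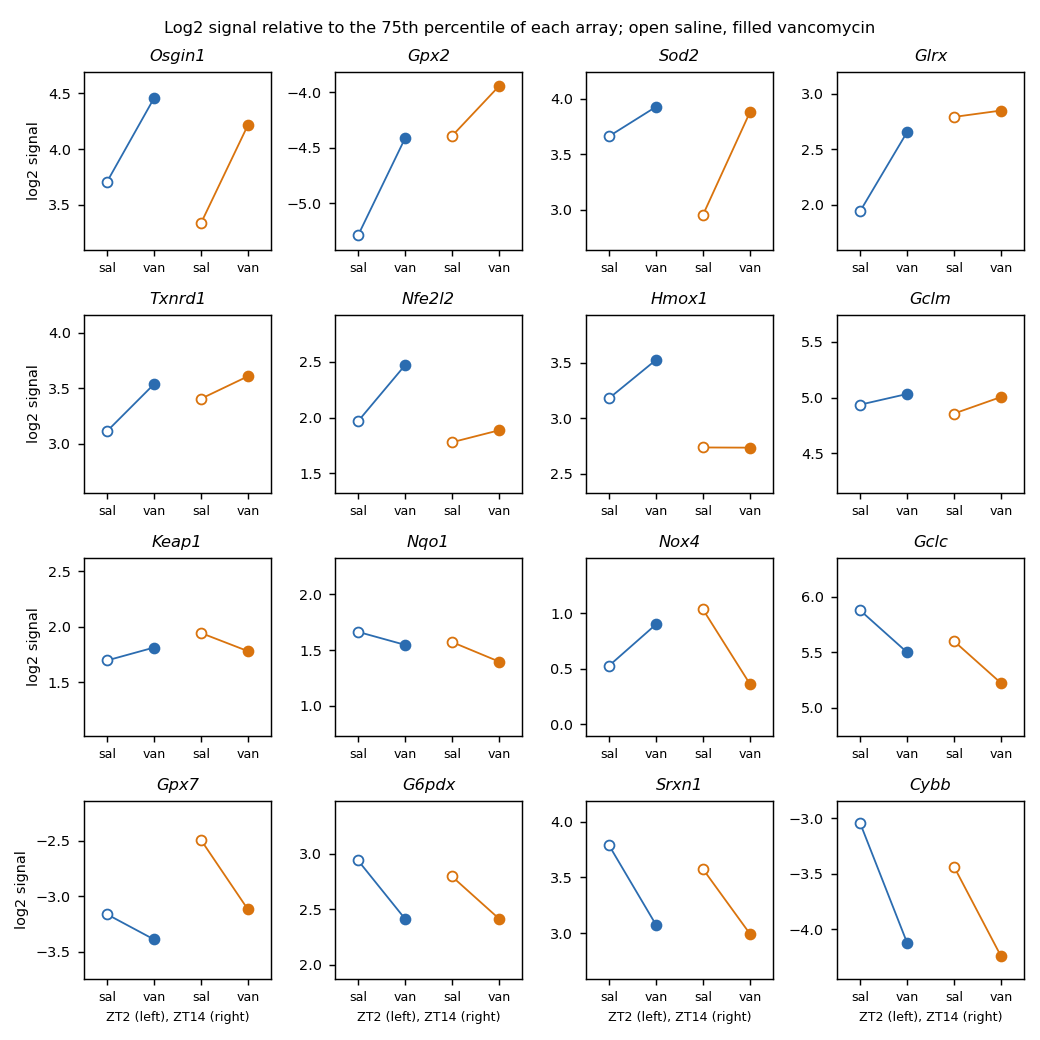
Log2 signal relative to the array's 75th percentile (y axis, each panel spanning the same height) of 16 genes on the 4 arrays, with saline (open) and vancomycin (filled) joined within ZT2 (left pair) and ZT14 (right pair); each point is 1 array, so there are no error bars. In Osgin1, Sod2, Txnrd1 and Gclm both filled points lie above both open points, in Gclc, G6pdx, Srxn1, Cybb and Nqo1 they lie below, and in Glrx, Gpx7 and Nfe2l2 a single array stands apart from the other 3. The share of all genes with treatments separated in this way was not counted, and some of the 16 were chosen by the size of their change. The separation is therefore description only.

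The NADPH oxidase genes differed among themselves. Cybb encodes the catalytic subunit of the oxidase of phagocytes, and its probe at chrX:9013216-9013275 of mm9 begins tttccttgtctttatttttcttgcagacaa. It read -3.05, -4.12, -3.44 and -4.24, with both vancomycin arrays below both saline arrays. Cybb was 2.11-fold lower at ZT2 and 1.75-fold lower at ZT14 (-1.08 and -0.80), and -0.94 ± 0.16 (SE) over both times with a limma adjusted p of 0.52. Its other probe gave -1.20 and -0.37. The values depended on the background correction, since normexp gave -0.39 and -0.26, and a pseudocount of 16 left -0.58 at ZT14, all short of 1.5-fold. Cyba, the partner subunit shared by several oxidases, read 7.30, 7.30, 7.31 and 7.08, with changes of 0.00 and -0.22.

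Most markers of macrophages and monocytes, the cells in which Cybb is best known, moved in the same direction. Of 12 such markers 10 were lower by at least 0.2 at both times, with a median change of -0.54 at ZT2 and -0.52 at ZT14. Cx3cr1 had changes of -0.99 and -0.96, Lyz2 of -0.67 and -0.57 and C1qa of -0.47 and -0.69. Of the other 2, Itgam had 0.05 and 0.15, and Csf1r 0.43 and -0.20. The summed scaled signal of the 12, in which Itgam and Csf1r weigh most, was 37.3, 36.8, 47.4 and 45.1. Of the 12, Cd163 was not well above background on either vancomycin array and Ccr2 not on the vancomycin array at ZT2. Of 6 lymphocyte markers 5 were lower at both times, of 5 endothelial markers 4 and of 7 neutrophil markers 2. In whole kidney RNA, fewer cells of a type and less RNA per cell cannot be told apart, and the part of these cells in the value of Cybb was not tested.

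Nox4, the oxidase of kidney tubule cells, had changes of opposite sign. It read 0.53, 0.90, 1.03 and 0.36, so vancomycin was 0.37 higher at ZT2 and 0.67 lower at ZT14, 1.59-fold. The difference between the times was not tested, since each is a comparison of 1 array with 1 array. Over both times the estimate was -0.15 ± 0.34 (SE), with a limma adjusted p of 0.94. The treatments overlapped. The 3 probes of Nox4 above background did not all follow this pattern, so their first 30 bases are shown, with the probe used above first and the others in order of brightness at ZT2 in vancomycin.
Nox4 brightest probe: agtaaccggaacaactcatatgggacaaaa
Nox4 further probe: tgccccagtgtatcagcattagaaaaccac
Nox4 probe of opposite sign: ccaggattacaggaaggacaggatccaatc

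The brightest lies at chr7:94545342-94545401 of mm9 on the plus strand. The further probe, whose listed coordinates run over chr7:94472458-94487478, gave the same pattern, with changes of 0.42 and -0.49. The probe at chr7:94436116-94436175 gave -0.19 and 0.71. The mean over the probes was 0.20 at ZT2 and -0.15 at ZT14, which ends the call at ZT14.

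Of the 44 genes 20 had more than 1 probe above background. At ZT2, 0 of these 20 had probes of opposite sign with both changes at least 0.2. At ZT14 there were 3, namely Nox4, Cyba (-0.22 by the brightest probe, 0.41 by a dim one) and Prdx4 (0.28 and -0.37). A dim probe of Prdx1 read -1.68 on the saline array at ZT2 and between -4.07 and -3.99 on the other 3, a change of -2.34 at ZT2, while the 3 brighter probes of this gene lay between 0.00 and 0.18. A dim probe of Pgd had a change of 0.69 at ZT14, beside -0.07 by the brightest probe.

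**Figure D3:**
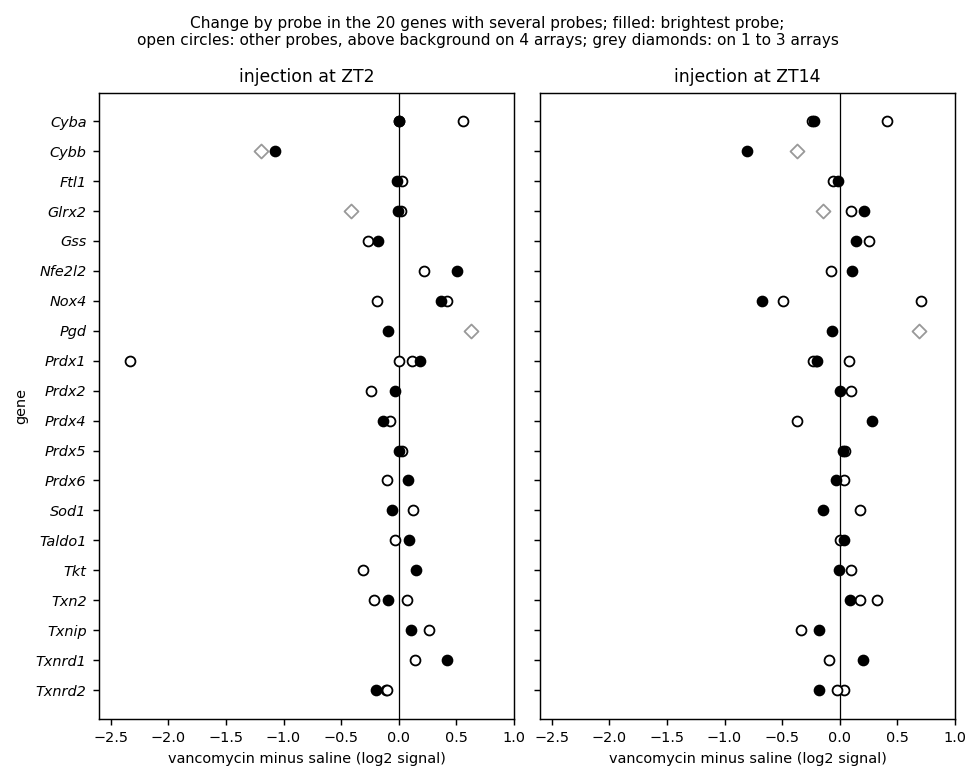
Change with vancomycin (x axis, log2 signal, left ZT2, right ZT14) by probe in the 20 genes with more than 1 probe above background, with the brightest probe filled, other probes above background on all 4 arrays as open circles and probes above background on 1 to 3 arrays as grey diamonds. Nox4, Cyba and Prdx4 have probes on both sides of 0 at ZT14, and a dim probe of Prdx1 lies at -2.34 at ZT2.

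The small size of most changes, without division by the spike-in slope, is the other feature of these genes. With that division the median change of the members at ZT2 was 0.47. Without it the median size of change, regardless of direction, was 0.12 at ZT2 and 0.15 at ZT14, beside 0.23 and 0.20 over all genes. Over the 20759 genes above background on all arrays, as the 44 are, it was 0.19 and 0.17. A change under 0.2 at both times was seen in 24 of the 44, or 54.5%, beside 28.8% of all genes. Among the 20759 genes this share was 33.6%. A mean log2 signal of 4 or more was reached by 22 members and by 2071 of all genes. At this brightness the shares under 0.2 were 72.7% of the 22 and 59.1% of the 2071.

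Other redox genes, 71 measured of 72 on the array, were looked at as a list beside the members. Of these 7 were higher and 6 lower by at least 0.2 at both times, beside 9.64% and 11.4% of all genes, and 0 had a limma adjusted p under 0.05. The highest by the smaller of the changes were Gstt1, a glutathione transferase (0.44 and 0.77), Bach1, a repressor that competes with NRF2 for its sites (0.35 and 0.56), and Gsta2, another transferase (0.35 and 0.53). The transferases and other NRF2 targets, 24 genes, had 5 higher and 0 lower at both times, beside the same 9.64% and 11.4%, with medians of 0.05 and 0.10. Beside Gstt1 and Gsta2 these were Mgst3 (0.58 and 0.34), Gstm5 (0.33 and 0.26) and Nqo2, a relative of Nqo1 (0.31 and 0.25). Of 10 further NADPH genes Aldh1l1, a folate enzyme (0.48 and 0.28), was higher at both times and H6pd, which makes NADPH in the endoplasmic reticulum (-0.23 and -0.22), lower. The 7 genes of glutathione turnover and the 12 of selenium use and repair had 0 in either direction.

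Genes lower at both times in that list included partners of Cybb. Ncf1, a cytosolic subunit of the phagocyte oxidase, had changes of -0.67 and -0.67, Rac2, the small GTPase of the same complex, of -0.50 and -0.69, and Xdh, xanthine dehydrogenase, which is no part of it, of -0.55 and -0.79. Ncf4, a further cytosolic subunit, had changes of -0.87 and -0.35. Cybb, Ncf1, Ncf4 and Rac2 are expressed mainly in leukocytes. Of the 12 macrophage and monocyte markers given above, 10 were lower at both times, and Itgam and Csf1r were not. The part of these cells in the values of the oxidase genes was not tested. Markers of the adrenal gland were higher on the vancomycin arrays, 8 of 9 by at least 0.2 at both times, beside 9.64% of all genes. Their median change was 2.94 and 1.39 and their summed scaled signal 0.676, 6.49, 0.725 and 1.32. Cyp11a1, Cyp11b1, Chga and Dbh were not well above background on the saline arrays, so the sizes of their changes are uncertain. The part of adrenal tissue in the members' values was not tested.

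The same arrays were compared between injection times. In saline, 8 members were at least 1.5-fold higher at ZT14 than at ZT2 (Ftl1, Glrx2, Gpx2, Glrx, Prdx5, Gpx7, Gpx3 and Tkt) beside 20.6% of all genes, and Sod2 was lower (-0.71) beside 11.8% of all genes. In vancomycin, 3 were higher (Ftl1, Glrx2 and Prdx5) beside 22.4% of all genes, and 3 were lower beside 12.7% of all genes, namely Hmox1 (-0.79), Cbr1 (-0.75) and Nfe2l2 (-0.59). In both treatments 3 were higher, beside 13.7% of all genes, and 0 were lower, beside 5.05%. With another probe of Glrx2, described below, 2 were higher. In limma 0 members and 0.0% of all genes had an adjusted p under 0.05 for time, and 8 members, beside 27.2% of all genes, had an unadjusted p under 0.05. Markers of fat tissue differed between the same arrays. Of 8 such markers 7 were lower at ZT14 than at ZT2 in both treatments, by any amount. How many of all genes were lower in this way was not counted. The summed scaled signal of the 8 was 27.3, 15.4, 8.99 and 10.5. Cidec read 1.97, 0.22, -3.20 and -3.76, and Adipoq and Plin1 were well above background on 2 of the 4 arrays. Retn was so on 3 arrays and Ucp1 on 1, so the difference of Ucp1 in saline compares dim readings. The part of fat tissue in the members' differences between times was not tested.

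The genes higher at ZT14 in both treatments were among the brightest. Ftl1, the ferritin light chain, read 7.85, 7.84, 8.90 and 8.89, a difference of 1.05 in saline and 1.05 in vancomycin. Its other probe gave 0.10 and 0.01. Prdx5 read 7.89, 7.90, 8.61 and 8.64, a difference of 0.71 and 0.74, and its other probe gave 0.49 and 0.50. Across the 9 members with a mean log2 signal of 7 or more the median difference was 0.47 in saline and 0.39 in vancomycin, and across all 182 such genes it was 0.37 and 0.37. Glrx2 is among the 9 by a probe that is not particular to it, described below. With quantile normalization the medians of the 9 were -0.14 and -0.19, and those of the 182 were -0.01 and 0.00. Under that setting 0 members were past 1.5-fold upward in both treatments, beside 11.9% of all genes, and 0 downward, beside 6.32%. With division by the spike-in slope, which was 0.935, 0.877, 1.004 and 1.002 in the file headers, the difference in vancomycin was -0.07 for Ftl1 and -0.39 for Prdx5, the opposite sign.

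Glrx2, the mitochondrial glutaredoxin, showed a difference between times of 1.01 in saline and 1.22 in vancomycin, and this rested on a probe that is not particular to it. The probe lies at chr1:145596708-145596767 of mm9, and it shares a run of at least 20 bases with probes of 16 other gene entries on the array. Bases 28 to 57 are shown, with a 20-base run in capitals that stands in probes of 6 other entries.
Glrx2 probe: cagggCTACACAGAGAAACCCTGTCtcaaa

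The next brightest probe of Glrx2, which shares no such run, read 3.40, 3.42, 3.34 and 3.44, so its difference between times was -0.06 in saline and 0.01 in vancomycin. Its changes with vancomycin were 0.02 and 0.10. Taking the brightest probe of each of the 45 genes, Slc7a11 included, 41 share no run of this length with probes of other entries. Besides Glrx2, the probes of Cbr1 and Prdx6 share one with 1 other entry each and that of Sod1 with 2.

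**Figure D4:**
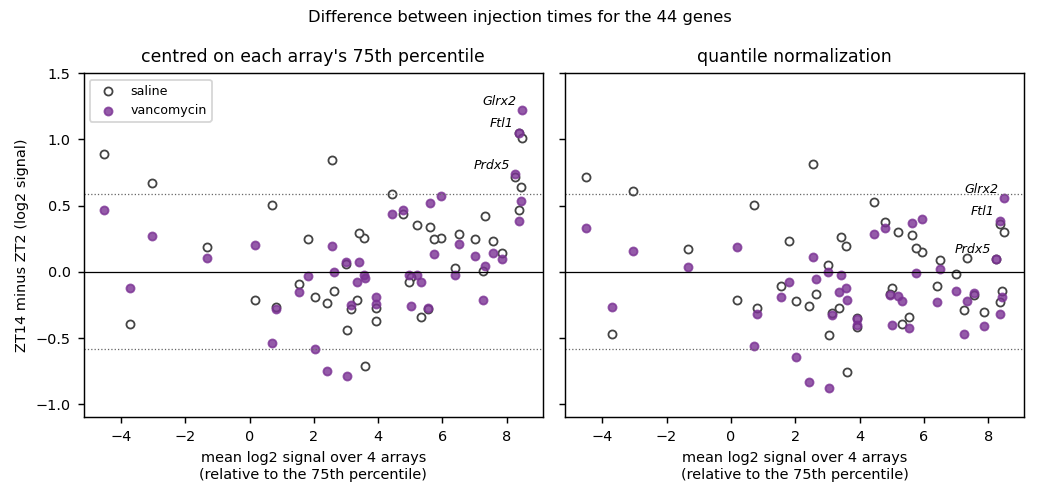
Difference between injection times (y axis, ZT14 minus ZT2, log2 signal) against the mean log2 signal over the 4 arrays (x axis) for the 44 genes in saline (open) and vancomycin (filled), centred on each array's 75th percentile (left) or quantile normalized (right); each point is 1 array against 1 array and dotted lines mark 1.5-fold. On the left Ftl1, Glrx2 and Prdx5 lie above the line in both treatments, and on the right they lie below it.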

How the data were processed

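Total RNA of mouse kidney was labelled with Cy3 and hybridized to Agilent arrays, 1 per group. Per the file headers, the deposited intensity values were background-subtracted and detrended by Agilent Feature Extraction 10.7.1.1 (9.5.1.1 in the submitters' processing notes), with no normalization between arrays and with probe coordinates in mm9. A second deposited table by the authors, of intensity by probe, has the same quartiles in all 4 columns and served as an alternative. Of the spots on an array, 60.6% to 64.7% were well above background and 0 were saturated. The number of arrays limits the precision.

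Log2 processed signals were centred on the 75th percentile of each array, without non-uniform and outlier spots, and averaged by probe. Probes passed the filter where 50% or more of their spots were well above background on any array, and a gene was read by its brightest such probe. limma 3.58.1 fitted treatment and injection time over 24638 gene entries, with Benjamini-Hochberg adjustment over all of them. The prior added 1.86 degrees of freedom with an SD of 0.168. The fit was tested on simulated data.

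The members and lists were chosen with earlier results of these data known. Values are given on all arrays for members past 1.5-fold at either time or with changes of at least 0.3 in the same direction at both times, for the best known NRF2 genes, and for members past 1.5-fold between injection times in both treatments. Other redox genes named are the 3 furthest from 0 at both times in each direction. Aldh1l1, H6pd, Mgst3, Gstm5, Nqo2 and Ncf4 were named after their values were seen. Of the other redox genes, 1 is not reported here. Alternatives covered background correction, normalization, filters, probes, a pseudocount and the size threshold.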

Additional observations from a re-analysis of the deposited data

Results flagged for a closer look

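Nox4 was picked out because vancomycin was higher than saline at ZT2, by 0.37 on the log2 scale, and lower at ZT14, with a change of -0.67. This difference between the injection times was not tested, since each value compares 1 array with 1 array. A further probe of Nox4 gave 0.42 and -0.49, and a probe elsewhere in the gene gave -0.19 and 0.71.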

How the results depend on the processing

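No paired analysis was possible because each group has 1 array and the labels give no replicate numbers, and for the same reason no array could be left out. Dividing log2 signals by the spike-in slope was an alternative chosen after seeing the data. At ZT2 it gave 12 members higher and 1 lower past 1.5-fold, in place of 3 and 2, beside 8.49% and 17.7% of all genes. It gave a median change of the members at ZT2 of 0.47. In both treatments 5 members were lower at ZT14 than at ZT2 by 1.5-fold, beside 6.29% of all genes. The median over the 2071 genes with a log2 signal of 4 or more was then 0.37 at ZT2, from -0.01. At 2-fold, 0 members were higher and 1 lower at ZT2, beside 3.7% and 5.98% of all genes. At ZT14, 0 were higher and 0 lower at this size, beside 2.31% and 4.49%. At 1.5-fold, 1 was lower at ZT2 with normexp, beside 3.47% of all genes. With a pseudocount of 16, 1 was lower at ZT14, beside 5.39%. With quantile normalization and in the authors' deposited table, 0 members were past 1.5-fold higher at ZT14 than at ZT2 in both treatments. Of all genes, 11.9% and 11.7% still were. The differences between times that took the other sign were -0.065 (Ftl1) and -0.39 (Prdx5) in vancomycin with the spike-in slope, and -0.059 (Glrx2) in saline by a probe chosen after seeing the data. The cause was not tested. In the other 104 values, counts stayed within 1.5 times and medians moved little, but the members counted were not always the same. At ZT14, normexp gave Nox4 and Srxn1 as lower in place of Cybb, Gpx7 and Nox4, and the mean over probes left out Nox4. At ZT2, normexp and the pseudocount left out Gpx2. The median at ZT14, -0.01, was 0.02 with median centring. limma called 0 members in all 10 alternatives of that fit, where the smallest adjusted p of a member ran from 0.115 to 1.0. Dim probes such as those of Gpx2, Gpx7 and Cybb depend most on the background correction.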
